A study of Mus musculus with 12 samples.

Results

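The lysosome and autophagy genes described here are a list of 48 named genes, compared between 2 glucose levels in cultured mouse aortic smooth muscle cells. Each gene was represented by the probe set that carries exactly that 1 symbol in the array's annotation, and by the one with the highest mean where there were several. By this rule 47 of the 48 were measured, among 22180 genes in all. The exception was Glb1, lysosomal beta-galactosidase, whose symbol stood only on a probe set shared with other symbols. The 47 fall into 14 hydrolases and other proteins of the lysosomal lumen, 8 membrane proteins, 4 parts of the proton pump, 13 autophagy genes and 8 genes of TFEB-family control.

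The cells were primary aortic smooth muscle cells of C57BL/6J mice, an inbred strain, at passage 3 to 4, and both groups were grown in DMEM with 10% fetal calf serum. The low group had 0.3 g/l (1.7 mM) glucose and the high group 4.5 g/l (25 mM), for 14 days by the series text and 1 week by the sample labels. Each group held 6 arrays, numbered replicate 1 to 6. Whether the replicates were separate cultures or animals is not in the labels, so the p-values cover only the spread among these 12 samples, and this spread may be technical. No osmotic control enters the comparison analysed here.

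Lysosomes digest material from endocytosis and autophagy with acid hydrolases, in a lumen that a vacuolar-type proton pump keeps acidic. Autophagy encloses cytoplasm in a membrane built with lipid-conjugated Atg8-family proteins and delivers it to the lysosome. The transcription factors TFEB, TFE3 and MITF bind E-box sites in promoters of many lysosomal genes, and the folliculin complex and Rag GTPases, which respond to nutrients at the lysosomal surface, control whether these factors enter the nucleus.

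The E-box letters were looked for in the members' promoters, since the list holds both these factors and many genes known as their targets. Windows from 250 bases before to 50 bases after the transcription start were taken from RefSeq on GRCm38.p6, and 41 of the 48 listed genes had an entry. The motifs searched, CACGTG, TCACGTGA and the latter with a G before and a C after it, read alike on both strands, and each lies within the next longer one. CACGTG occurred in 14 of 41 members (34.1%) and in 2187 of 27025 genes with an entry (8.09%). TCACGTGA occurred in 6 of 41 (14.6%) and in 304 of 27025 (1.12%), and the same letters with a G before and a C after them in 0 of 41 and 100 of 27025 (0.370%). A match is a description of the letters, not of a bound site.

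Of the 6 holders of TCACGTGA, Mcoln1 and Atp6v0d1 were lower in 4.5 g/l with all 12 arrays. Their windows follow, up to 20 bases after the start, with the motif in capitals; it begins at position -46 from the start in Mcoln1 and at -4 in Atp6v0d1. The Mcoln1 window holds CACGTG at 2 places.
Mcoln1 (chr8:3500269-3500538, plus strand): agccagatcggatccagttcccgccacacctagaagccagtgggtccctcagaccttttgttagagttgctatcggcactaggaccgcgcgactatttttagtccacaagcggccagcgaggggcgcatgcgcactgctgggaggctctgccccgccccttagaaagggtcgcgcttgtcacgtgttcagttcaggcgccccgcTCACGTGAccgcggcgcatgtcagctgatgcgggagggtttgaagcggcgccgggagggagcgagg
Atp6v0d1 (chr8:105566045-105566314, minus strand): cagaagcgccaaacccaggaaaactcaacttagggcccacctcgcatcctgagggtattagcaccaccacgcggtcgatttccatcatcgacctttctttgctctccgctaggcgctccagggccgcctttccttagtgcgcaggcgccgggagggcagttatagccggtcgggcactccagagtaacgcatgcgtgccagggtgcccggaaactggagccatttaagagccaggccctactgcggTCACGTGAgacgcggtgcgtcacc
The other 4 holders did not pass the test with all 12 arrays. A stretch of 30 bases around the first copy in each is given for comparison, with the motif in capitals. It begins at -132 in Atp6v1a, -13 in Ctsa, -99 in Ctsd and -228 in Gla, and Ctsa and Gla each hold 2 copies.
Atp6v1a (chr16:44139373-44139402, minus strand): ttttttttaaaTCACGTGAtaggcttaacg
Ctsa (chr2:164833749-164833778, plus strand): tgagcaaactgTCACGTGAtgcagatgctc
Ctsd (chr7:142387908-142387937, minus strand): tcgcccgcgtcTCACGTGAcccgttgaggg
Gla (chrX:134601215-134601244, minus strand): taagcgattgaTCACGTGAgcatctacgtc
CACGTG was found in 7 of the 17 lower members with an entry and in 6 of the 23 members with an entry that did not pass, and TCACGTGA in 2 of 17 and 4 of 23. The 6-letter motif was therefore present on both sides of the test.

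Values are log2 RMA intensities, and differences are 4.5 minus 0.3 g/l on that scale. Array medians were 4.92 to 5.05, and the dimmest 25% of genes had means below 4.20. Across the members, replicate 4 of the 0.3 g/l group stood apart from the other 5 arrays of its group. It was the lowest of its group in 42 of 47 members, and in 46 of 47 it lay at or below the highest 4.5 g/l array. The 46 include 4 members whose difference was above 0, where this order is no sign of likeness to 4.5 g/l. These counts were not made over all genes. Replicate 4 also had the lowest limma array weight fitted over all genes, 0.234, where the highest was 1.52. Its mean over the 47 members was 9.34, against 9.86 to 10.00 on the other 0.3 g/l arrays. In 4.5 g/l this mean was 9.57 to 9.59 for replicates 1 to 3 and 9.38 to 9.41 for 4 to 6. All 12 arrays were kept, and results are given with and without this array. It was singled out after the members' values were seen. The p-values and counts without it therefore describe the other arrays and are no independent support. The 7 smooth muscle markers all rose in 4.5 g/l and were present in both groups. Their list means were 9.28 to 9.55 on the other 5 arrays of 0.3 g/l, 10.78 on replicate 4 and 11.32 to 11.66 in 4.5 g/l. These markers placed replicate 4 between the groups, while the members' mean on it was below that of every 4.5 g/l array.

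**Figure D1:**
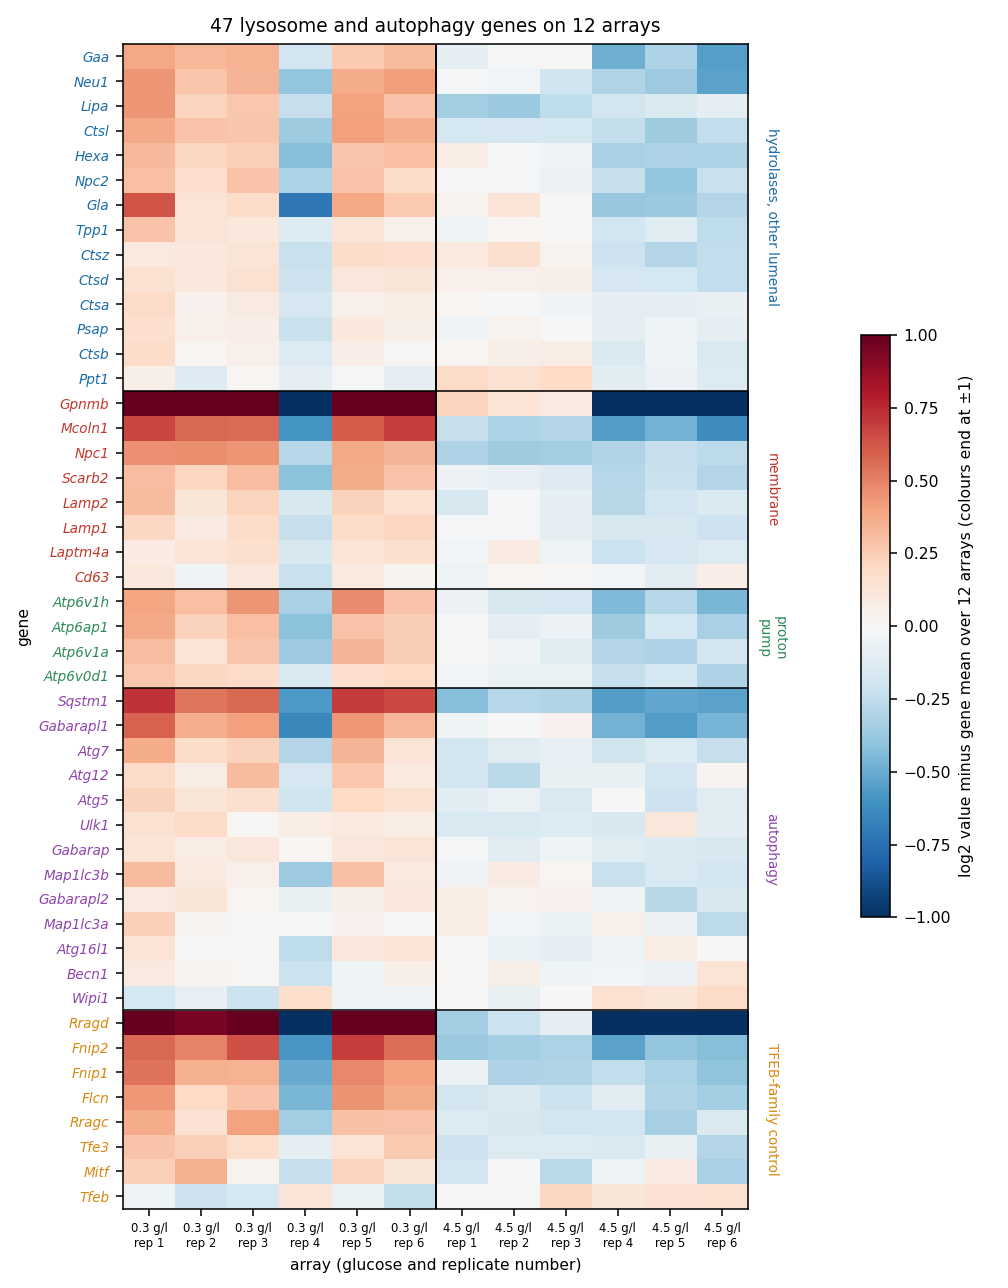
Log2 value of each of the 47 members (rows, coloured by role) on the 12 arrays (columns), minus the gene's mean over all arrays; red is above and blue below that mean. Replicates 1, 2, 3, 5 and 6 of 0.3 g/l are mostly red, and 0.3 g/l replicate 4 is as blue as the 4.5 g/l arrays in most members.

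A part of the lysosome and autophagy genes was lower in high glucose, mostly by small amounts. With all 12 arrays, 19 of 47 members fell in 4.5 g/l, 28 did not pass and none rose (limma with Benjamini-Hochberg adjustment over 22180 genes, threshold 0.05), where 8.52% of all genes were lower and 7.01% higher. At an unadjusted p under 0.05, 32 members were lower and 1 higher, and 6112 of 22180 genes differed in either direction. An exact rank-sum test called 2 members lower, Gabarap and Tfe3, and none higher (4.35% and 4.63% of all genes). Tested in limma against a fold of 1.2, no member passed (0.852% of all genes were lower and 1.19% higher). At an unadjusted p under 0.05 in that test, 10 members were lower, and 1512 of 22180 genes differed in either direction. The difference was below 0 in 43 of 47 members and in 51.8% of all genes, with medians of -0.29 and -0.01. Of the 19, 5 fell at least 1.5-fold: the cholesterol exporter Npc1, the calcium channel Mcoln1, the autophagy receptor Sqstm1, the folliculin partner Fnip2 and the small GTPase Rragd. The share of all genes that fell by as much was not counted. The values of all 12 arrays were fully apart between the groups in 1 member, Gabarap, against 6.40% of all genes.

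Without 0.3 g/l replicate 4, 35 members fell and 1 rose, where 13.6% of all genes were lower and 10.3% higher, and the median was -0.36. The 19 members lower with all 12 arrays were all among these 35. On the remaining 11 arrays 33 of 47 members lay lower on every 4.5 g/l array than on any 0.3 g/l array, against 11.0% of all genes. Leaving out single arrays gave 10 to 35 lower members: 10 without 0.3 g/l replicate 1 or 3, 11 without 0.3 g/l replicate 5 or 6 or 4.5 g/l replicate 4, and 35 without 0.3 g/l replicate 4. In all of these fits 10 members were called, namely Ctsl, Gaa, Lipa, Npc1, Mcoln1, Atp6v1h, Sqstm1, Gabarap, Tfe3 and Fnip2. The share of all genes called in every such fit was not counted.

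**Figure D2:**
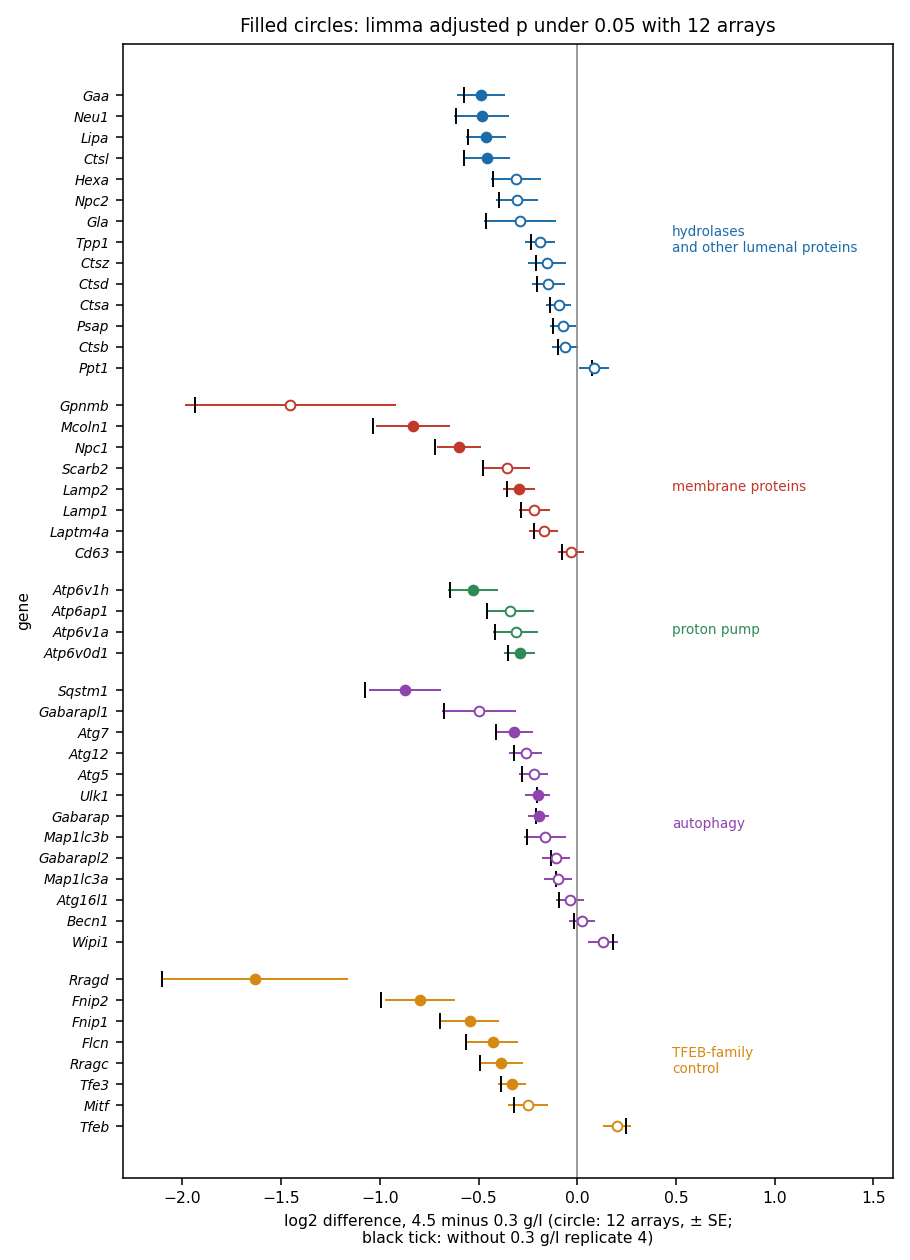
Log2 difference of each member, 4.5 minus 0.3 g/l, with its SE from limma over 12 arrays (circles, filled where the adjusted p is under 0.05), and without 0.3 g/l replicate 4 (black ticks), grouped by role. Nearly all circles lie left of 0, and the ticks lie further left than the circles in most members.

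Among the hydrolases and other lumenal proteins, 4 of 14 fell and 10 did not pass, with a median of -0.24. Lipa, the acid lipase that frees cholesterol and fatty acids from lipoprotein lipids, had a lowest, median and highest value of 10.37, 10.88 and 11.04 in 0.3 g/l, and of 10.23, 10.38 and 10.52 in 4.5 g/l. The groups overlapped only through 0.3 g/l replicate 4, its lowest array at 10.37, and the difference was -0.46 ± 0.10 (SE, n = 6 and 6; 1.38-fold; adjusted p = 0.00776). Gaa, the acid alpha-glucosidase that degrades glycogen in the lysosome, ran from 9.81 over 10.31 to 10.38 in 0.3 g/l and from 9.44 over 9.78 to 10.00 in 4.5 g/l. Again only 0.3 g/l replicate 4 lay within the other group, and Gaa fell by 0.49 ± 0.12 (adjusted p = 0.0144). Ctsl, the cysteine protease cathepsin L, ran from 11.22 over 11.90 to 11.98 and from 11.21 over 11.36 to 11.41. Here 0.3 g/l replicate 4 reached the lowest 4.5 g/l values, while the other 5 arrays were at 11.85 or above, and Ctsl fell by 0.45 ± 0.11 (adjusted p = 0.0145). The sialidase Neu1 was the remaining one that fell, by 0.48 ± 0.14 (adjusted p = 0.0288). Its call was lost without any 1 of 0.3 g/l replicates 1, 2, 3, 5 and 6 or of 4.5 g/l replicates 4, 5 and 6.

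The 10 hydrolases and lumenal proteins that did not pass had differences from -0.31 to 0.08. Ctsd, the aspartic protease cathepsin D, ran from 12.30 over 12.62 to 12.66 in 0.3 g/l and from 12.26 over 12.45 to 12.57 in 4.5 g/l. Its 4.5 g/l arrays all lay below the 0.3 g/l arrays other than replicate 4, but by little, and the difference was -0.15 ± 0.08 (adjusted p = 0.282). The proteases Ctsa, Ctsb and Ctsz and the saposin precursor Psap differed by -0.15 to -0.06, and Ppt1, palmitoyl-protein thioesterase, by 0.08. On the 11 arrays without 0.3 g/l replicate 4, 9 of 14 fell, with a median of -0.32. The 5 added were Ctsd (-0.20, adjusted p = 0.0494), the hexosaminidase alpha subunit Hexa (-0.42), the alpha-galactosidase Gla (-0.46), the peptidase Tpp1 (-0.24) and the cholesterol carrier Npc2 (-0.40).

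Of 8 membrane proteins 3 fell, with a median of -0.33. Npc1, which exports cholesterol from the lysosome, ran from 9.19 over 9.89 to 9.94 in 0.3 g/l and from 9.12 over 9.17 to 9.24 in 4.5 g/l. The 4.5 g/l arrays lay within a narrow band, which also held 0.3 g/l replicate 4 at 9.19, while the other 5 low-glucose arrays were at 9.82 or above. The difference was -0.60 ± 0.11 (1.52-fold, adjusted p = 0.00283), and a second, dim Npc1 probe set differed by -0.11, from 4.78 to 4.67. Mcoln1, the mucolipin channel that lets calcium out of the lysosome, ran from 8.36 over 9.55 to 9.65 in 0.3 g/l and from 8.33 over 8.56 to 8.73 in 4.5 g/l. Apart from replicate 4, every 0.3 g/l array was at 9.52 or above, higher than any 4.5 g/l array. Mcoln1 fell by 0.83 ± 0.19 (1.78-fold, adjusted p = 0.00819), and by 1.04 (2.05-fold) without 0.3 g/l replicate 4. Lamp2, a main glycoprotein of the lysosomal membrane, ran from 11.07 over 11.42 to 11.55 and from 10.95 over 11.08 to 11.21, and fell by 0.29 ± 0.08 (adjusted p = 0.0219). Its call was lost without 0.3 g/l replicate 1, 3 or 5 or 4.5 g/l replicate 4.

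Lamp1, the related glycoprotein, ran from 11.77 over 12.18 to 12.21 in 0.3 g/l and from 11.79 over 11.87 to 11.99 in 4.5 g/l. Replicate 4 of 0.3 g/l lay below every 4.5 g/l array and the other 5 above them all. The difference was -0.22 ± 0.08 (adjusted p = 0.0840), or -0.28 without that array (adjusted p = 0.00182). Gpnmb, a glycoprotein of lysosomes and melanosomes, ran from 6.72 over 9.53 to 9.88 in 0.3 g/l and from 6.76 over 7.69 to 8.64 in 4.5 g/l. The array at 6.72 was replicate 4; the other 5 were at 9.48 or above. The 4.5 g/l arrays formed 2 separate sets, with replicates 1 to 3 at 8.51 to 8.64 and replicates 4 to 6 at 6.76 to 6.87. With all 12 arrays the difference of -1.45 ± 0.53 did not pass (adjusted p = 0.0852), and without 0.3 g/l replicate 4 it was -1.94 (3.83-fold, adjusted p = 0.00192). The remaining 3 did not pass with 12 arrays: the enzyme receptor Scarb2 (-0.36, adjusted p = 0.0534), the transmembrane protein Laptm4a (-0.17) and the tetraspanin Cd63 (-0.03). All but Cd63, 7 of 8, fell without 0.3 g/l replicate 4, with a median of -0.42.

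**Figure D3:**
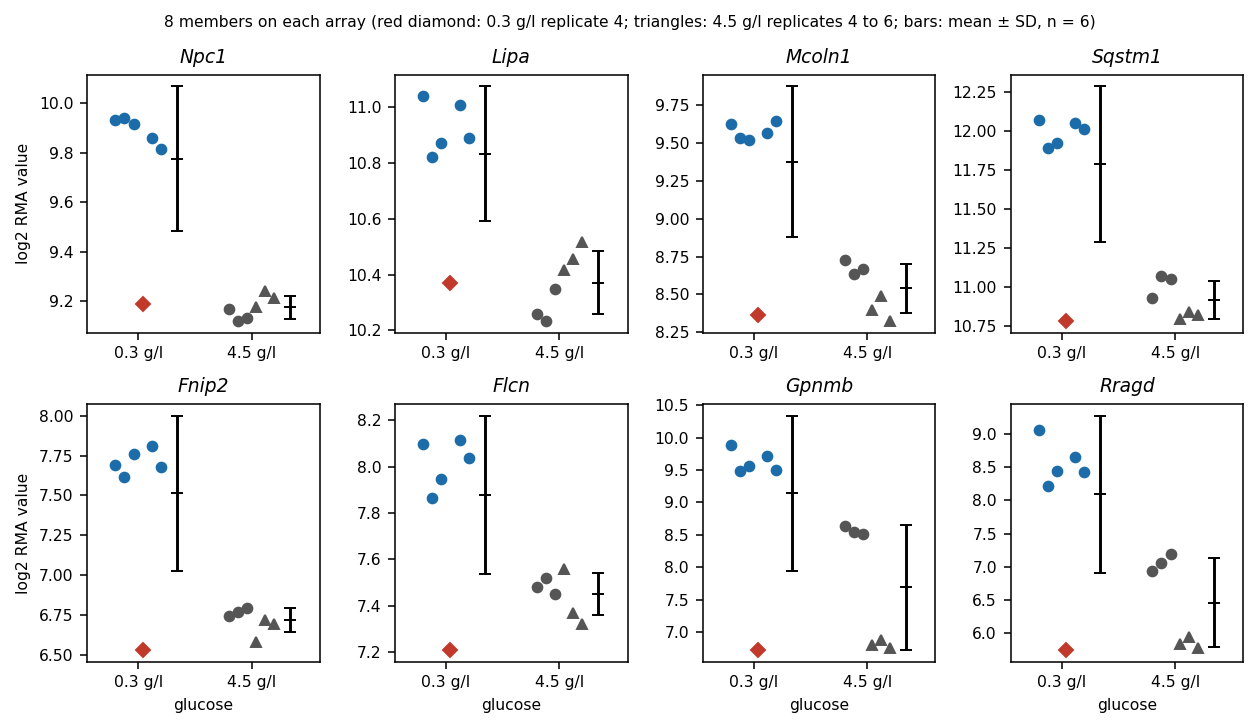
Log2 value of 8 members on each array (points), by glucose level, with mean ± SD of 6 arrays (bars); the red diamond is 0.3 g/l replicate 4 and triangles are 4.5 g/l replicates 4 to 6. In all 8 the red diamond lies with or below the 4.5 g/l points, and in Gpnmb and Rragd the triangles lie far below the 4.5 g/l circles.

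The proton pump consists of a cytosolic sector that splits ATP and a membrane sector that moves protons. Atp6v1h, a regulatory subunit of the cytosolic sector, ran from 8.23 over 8.91 to 9.03 in 0.3 g/l and from 8.10 over 8.33 to 8.50 in 4.5 g/l. Replicate 4 was again the only low-glucose array inside the 4.5 g/l range, and Atp6v1h fell by 0.53 ± 0.13 (1.44-fold, adjusted p = 0.0118). Atp6v0d1, of the membrane sector and with TCACGTGA at its start, ran from 10.48 over 10.83 to 10.90 and from 10.32 over 10.51 to 10.61. It fell by 0.29 ± 0.08 (adjusted p = 0.0227), a call lost without 0.3 g/l replicate 1, 3 or 6 or 4.5 g/l replicate 4 or 6. The accessory subunit Atp6ap1 ran from 10.66 over 11.34 to 11.45 and from 10.72 over 10.93 to 11.05, and did not pass (-0.34 ± 0.12, adjusted p = 0.0722). Nor did the ATP-splitting subunit Atp6v1a (-0.31, adjusted p = 0.0779), so that 2 of 4 fell with 12 arrays, with a median of -0.33. All 4 fell when 0.3 g/l replicate 4 was left out, with a median of -0.44.

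Of 13 autophagy genes 4 fell, with a median of -0.20. Sqstm1, the receptor p62 that ties ubiquitin-marked cargo to the autophagic membrane and is itself degraded there, ran from 10.78 over 11.97 to 12.07 in 0.3 g/l and from 10.79 over 10.88 to 11.07 in 4.5 g/l. Replicate 4 of 0.3 g/l was below every 4.5 g/l array, and the other 5 were at 11.89 or above. Sqstm1 fell by 0.87 ± 0.18 (1.83-fold, adjusted p = 0.00573), and by 1.07 (2.11-fold) without that array. Gabarap, an Atg8-family protein of the autophagic membrane, ran from 12.65 over 12.74 to 12.77 and from 12.47 over 12.52 to 12.62. Its 12 values were fully apart between the groups, with a small fall of 0.20 ± 0.05 (1.14-fold, adjusted p = 0.0207), and its second probe set differed by -0.14. Atg7, the enzyme that activates Atg8-family proteins for lipid attachment, ran from 7.77 over 8.27 to 8.43 and from 7.84 over 7.90 to 7.98. It fell by 0.32 ± 0.10 (adjusted p = 0.0377).

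The fourth to fall was Ulk1, the kinase that starts autophagy (-0.20, adjusted p = 0.0443). This call was lost under quantile normalization, cyclic loess and median centring alike, and Atg7 was called under 2 of these 3 scalings. Atg7 was lost in 10 of the 12 fits that left out 1 array, all but those without 0.3 g/l replicate 4 or 4.5 g/l replicate 3, and Ulk1 in 10, all but those without 0.3 g/l replicate 4 or 4.5 g/l replicate 5. Map1lc3b, the Atg8-family protein LC3B, ran from 11.10 over 11.57 to 11.79 in 0.3 g/l and from 11.25 over 11.38 to 11.55 in 4.5 g/l. Its groups overlapped, and the difference of -0.16 ± 0.11 did not pass (adjusted p = 0.358). The 8 others that did not pass ran from -0.50 in Gabarapl1, another Atg8-family gene (adjusted p = 0.0940), to 0.13 in Wipi1, which binds the phosphoinositide of forming autophagosomes. Between them lay the Atg8-family genes Map1lc3a (-0.10) and Gabarapl2 (-0.11). Becn1, of the lipid kinase complex that makes this phosphoinositide, differed by 0.02, and Atg16l1, of the Atg8 conjugation complex, by -0.04. Without 0.3 g/l replicate 4, 8 of 13 fell (median -0.21); Gabarapl1 (-0.67), Map1lc3b (-0.25) and the conjugation genes Atg5 (-0.28) and Atg12 (-0.32) were added.

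Of the 8 genes of TFEB-family control 6 fell with all 12 arrays, with a median of -0.41, and 7 fell and 1 rose without 0.3 g/l replicate 4. Tfe3, one of the 3 transcription factors, ran from 8.73 over 9.04 to 9.12 in 0.3 g/l and from 8.54 over 8.68 to 8.76 in 4.5 g/l. Only the lowest 0.3 g/l array, replicate 4, reached the 4.5 g/l values, and Tfe3 fell by 0.33 ± 0.07 (1.26-fold, adjusted p = 0.00672). Mitf ran from 6.67 over 7.07 to 7.25 and from 6.57 over 6.78 to 6.98, with overlapping groups and a difference of -0.25 ± 0.10 that did not pass (adjusted p = 0.121). Tfeb was the dimmest member, from 4.78 over 4.90 to 5.15 in 0.3 g/l and from 5.00 over 5.15 to 5.23 in 4.5 g/l. Its difference of 0.20 ± 0.07 did not pass (adjusted p = 0.0807). On the 11 other arrays Tfeb was the one member that rose, by 0.25 (adjusted p = 0.0106), and Mitf fell by 0.32 (adjusted p = 0.0151).

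The folliculin complex, which acts on the Rag GTPases, was lower in all 3 of its measured parts. Fnip2 ran from 6.53 over 7.68 to 7.81 in 0.3 g/l and from 6.58 over 6.73 to 6.80 in 4.5 g/l. Apart from replicate 4 at 6.53, the 0.3 g/l arrays were at 7.61 or above. Fnip2 fell by 0.80 ± 0.18 (1.74-fold, adjusted p = 0.00771), and by 0.99 (1.99-fold) without replicate 4. Fnip1 ran from 7.66 over 8.54 to 8.70 and from 7.76 over 7.85 to 8.10, and fell by 0.54 ± 0.15 (adjusted p = 0.0228). Flcn, folliculin itself, ran from 7.21 over 7.99 to 8.11 and from 7.32 over 7.47 to 7.56, and fell by 0.43 ± 0.13 (adjusted p = 0.0398). In all 3, replicate 4 was below every 4.5 g/l array. The Flcn call held in only 1 of 12 fits that left out an array, the one without 0.3 g/l replicate 4, and under 2 of 3 scalings. The Fnip1 call was lost without 0.3 g/l replicate 1, 3, 5 or 6 or 4.5 g/l replicate 6.

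Both Rag GTPases of the list fell. Rragc fell by 0.39 ± 0.11 (1.31-fold, adjusted p = 0.0283), a call lost without 0.3 g/l replicate 1, 3, 5 or 6 or 4.5 g/l replicate 4 or 5. Rragd, singled out after its values were seen because its fold was the highest of all members, ran from 5.75 over 8.43 to 9.06 in 0.3 g/l and from 5.78 over 6.44 to 7.19 in 4.5 g/l. Replicate 4 of 0.3 g/l held the 5.75 and the other 5 were at 8.22 or above, while 4.5 g/l replicates 1 to 3 were at 6.94 to 7.19 and replicates 4 to 6 at 5.78 to 5.94. Rragd fell by 1.63 ± 0.47 (3.10-fold, adjusted p = 0.0316), and by 2.10 (4.29-fold) without 0.3 g/l replicate 4. Its call was lost without any 1 of 0.3 g/l replicates 1, 2, 3, 5 and 6 or of 4.5 g/l replicates 4, 5 and 6.

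The split within the 4.5 g/l group seen in Gpnmb and Rragd was found in most members. In 29 of 47 (61.7%) all of 4.5 g/l replicates 4 to 6 lay below all of replicates 1 to 3, against 15.3% of all genes. These were 13 of 14 hydrolases and lumenal proteins, 4 of 4 pump genes and 5 of 8 membrane proteins, but 5 of 13 autophagy and 2 of 8 control genes. The opposite order was seen in 3 members, Lipa, Npc1 and Wipi1 (6.38%, and 12.5% of all genes). The labels give no meaning to the number ranges, which were compared after the split was known.

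Within replicates 1 to 3 alone, 23 members fell and none rose (1 higher at an unadjusted p under 0.05), where 7.16% of all genes were lower and 5.92% higher. Within replicates 4 to 6 no member passed, where 0.0406% of all genes were lower and 0.0947% higher. At an unadjusted p under 0.05 in limma, 9 of 47 members were lower there, and 3699 of 22180 genes differed in either direction. With 0.3 g/l replicate 4 left out there, 29 members fell, where 8.94% of all genes were lower and 6.55% higher. In both the first range and this reduced second range 20 members fell, among them Lipa, Gaa, Ctsl, Npc1, Mcoln1, Sqstm1, Fnip2, Flcn and Rragd. The share of all genes lower in both was not counted, and it cannot exceed the 7.16% of the first range. Member medians were -0.28 in the first range and -0.42 in the reduced second. Gpnmb differed by -1.08 and -2.79 in these ranges, Rragd by -1.51 and -2.69, and the difference between ranges was not tested.

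**Figure D4:**
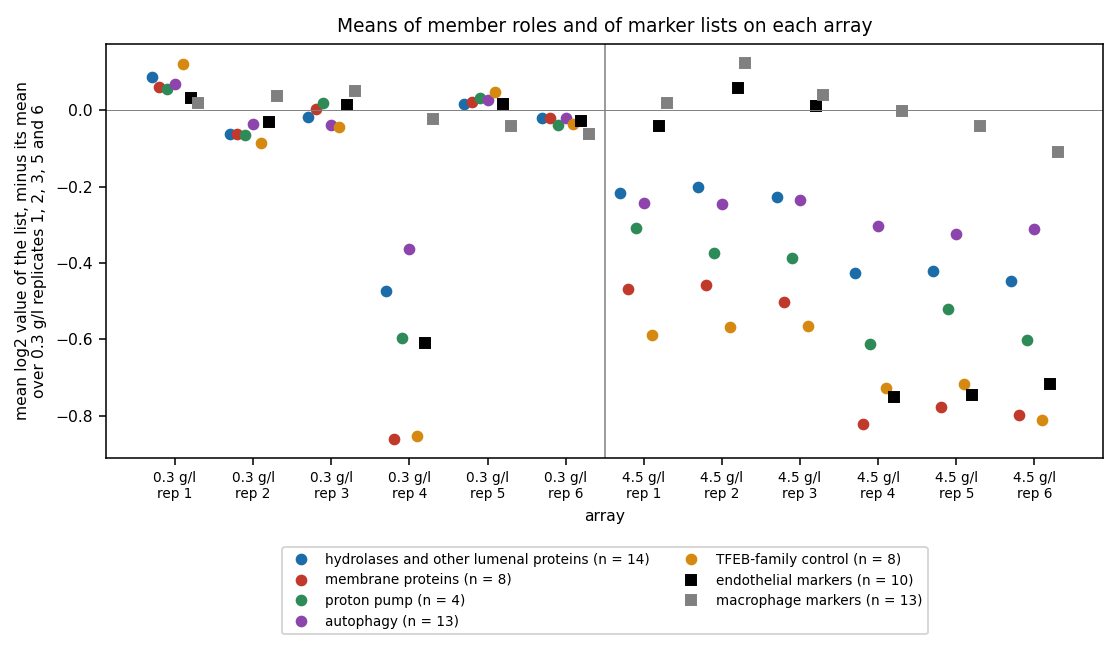
Mean log2 value of each member role and of the endothelial and macrophage marker lists on each array, minus the list's mean over 0.3 g/l replicates 1, 2, 3, 5 and 6. All 5 roles lie below 0 on 0.3 g/l replicate 4 and on all 4.5 g/l arrays; the endothelial markers lie low only on replicate 4 of 0.3 g/l and on replicates 4 to 6 of 4.5 g/l.

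Markers of other cells were set beside these values, since in a culture fewer cells of a type and less RNA per cell cannot be told apart. Macrophages are rich in lysosomes; 0 of 13 of their markers passed in limma, with 0 at an unadjusted p under 0.05, also by the rank-sum test. Their list mean was 4.82 to 4.93 on the 0.3 g/l arrays and 4.77 to 5.01 in 4.5 g/l. Of the 13, 4 had means under 4.20, namely Adgre1, Ptprc, Itgam and Mrc1. The rest lay above that bound, with means up to 7.33. Of 10 endothelial markers 1 fell with 12 arrays, Emcn, and 3 without 0.3 g/l replicate 4. Within replicates 1 to 3 alone 1 fell and 1 rose, and within replicates 4 to 6 less 0.3 g/l replicate 4, where 29 members fell, 9 of 10 fell with a median of -0.80. Their list mean was 7.98 to 8.04 on 0.3 g/l arrays other than replicate 4, 7.40 on that array, 7.97 to 8.07 on 4.5 g/l replicates 1 to 3 and 7.26 to 7.30 on replicates 4 to 6. None was under 4.20, and the junction protein Cdh5 had a mean of 11.10 in 0.3 g/l and 10.51 in 4.5 g/l. The endothelial markers were low on 0.3 g/l replicate 4 and on 4.5 g/l replicates 4 to 6, arrays on which the members' mean was also lowest, and their part in the members' results was not tested. Of 5 fibroblast markers 0 passed (1 higher at an unadjusted p under 0.05 by limma and by the rank-sum test), 1 rose without 0.3 g/l replicate 4, and Lum was under 4.20. Within replicates 1 to 3 alone 2 rose and 0 fell (median 0.30). Within replicates 4 to 6 less 0.3 g/l replicate 4, 1 rose and 2 fell (median -0.32). Their list mean was 4.99 to 5.24 on 0.3 g/l arrays other than replicate 4 and 5.04 on that array. In 4.5 g/l it was 5.29 to 5.35 on replicates 1 to 3 and 4.87 to 5.07 on replicates 4 to 6.

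Genes of the same pathways outside the list were counted in the same fit, in which 8.52% of all genes were lower and 7.01% higher. Of 20 other lysosomal membrane proteins 10 fell and none rose with 12 arrays, with a median of -0.35. The 3 with the smallest p were the amino acid transporters Slc36a1 (-0.42, adjusted p = 0.00292) and Slc38a9 (-0.44, adjusted p = 0.00365) and the sialic acid exporter Slc17a5 (-0.50, adjusted p = 0.00395). Of 18 other pump subunits 4 fell and none rose (median -0.26), led by Atp6v1g1 (-0.79, adjusted p = 0.00287) and Atp6v0b (-0.52, adjusted p = 0.00553). Atp6v1e1 (-0.27, adjusted p = 0.0419) kept its call only without 0.3 g/l replicate 4 when single arrays were left out. Of 30 other hydrolases and lumenal proteins 6 fell and 3 rose (median -0.19). The heparan-sulfate-degrading Naglu fell by 0.65 (adjusted p = 0.00601) and the carboxypeptidase Scpep1 by 0.65 (adjusted p = 0.0205, lost without 0.3 g/l replicate 1 or 5), while cathepsin H, Ctsh, rose by 0.26 (adjusted p = 0.0165).

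Of 38 other autophagy genes 6 fell and 1 rose (median -0.10), counts to be set beside the same shares of all genes. Tex264, a receptor for autophagy of the endoplasmic reticulum, fell by 0.42 (adjusted p = 0.00527) and the lipid transfer protein Atg2b by 0.23 (adjusted p = 0.0116), while Vmp1, a membrane protein of autophagosome formation, rose by 0.48 (adjusted p = 0.00918). Of 26 genes of nutrient signalling at the lysosome 6 fell and 4 rose (median -0.10). The mTORC1 subunit Akt1s1 fell by 0.52 (adjusted p = 0.00150), and the leucine-responsive Sesn1 and the AMPK subunit Prkaa1 rose by 0.51 (adjusted p = 0.00113) and 0.28 (adjusted p = 0.00782). Of 9 sorting genes 2 rose, the receptors Sort1 (0.29, adjusted p = 0.0114) and M6pr (0.23, adjusted p = 0.0136), and 1 fell, Gga1 (-0.21, adjusted p = 0.0470). The Gga1 call was lost in 10 of 12 fits that left out an array, all but those without 0.3 g/l replicate 4 or 4.5 g/l replicate 5, and under all 3 scalings. Without 0.3 g/l replicate 4 the lower counts became 14 of 20 membrane, 10 of 18 pump, 16 of 30 hydrolase, 14 of 38 autophagy, 10 of 26 signalling and 4 of 9 sorting genes. In the same order 1, 0, 3, 2, 4 and 2 genes rose. Of all genes 13.6% were lower and 10.3% higher in that fit.

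**Figure D5:**
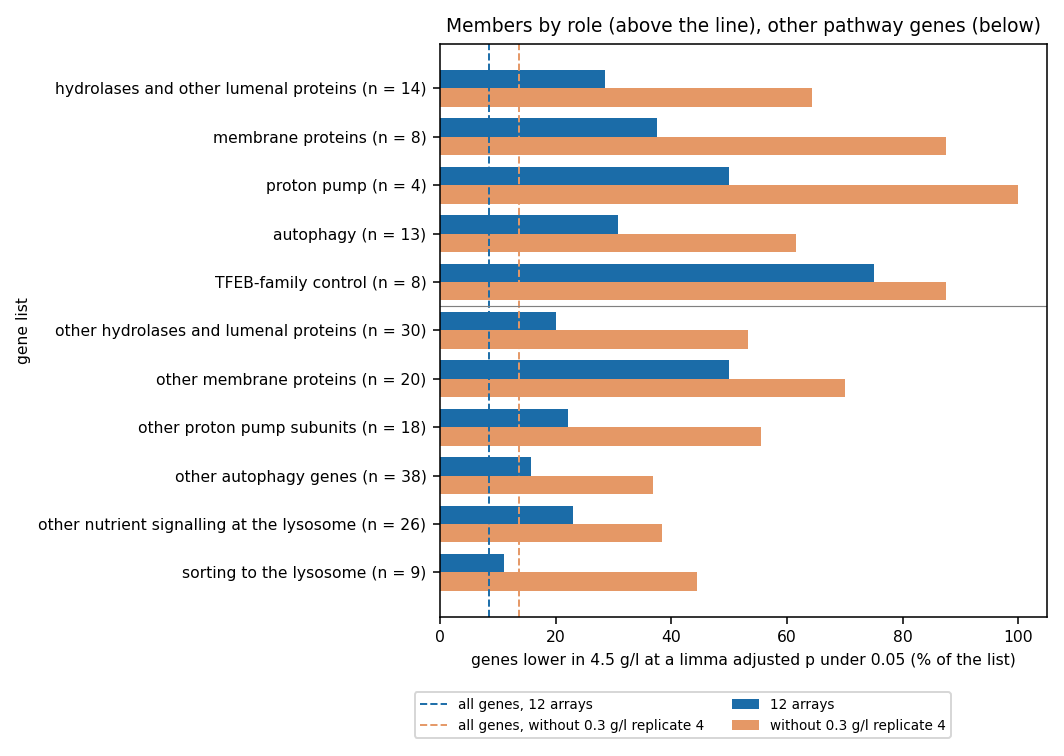
Share of each list lower in 4.5 g/l at a limma adjusted p under 0.05 (bars), for the members by role and for other genes of the same pathways, with all 12 arrays and without 0.3 g/l replicate 4. Dashed lines give the share over all 22180 genes, 8.52% and 13.6%.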

How the data were processed

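RNA was measured on 12 Affymetrix mouse whole-transcript arrays, biotin-labelled per the labels' protocols. The authors deposited log2 values per probe set, made with Affymetrix Expression Console and RMA per the submitters' processing notes; versions, filters and genome build are not given in the sources used here. RMA equalises array distributions and so hides any change in the RNA content of a cell. Of 41345 probe sets, 23521 carried 1 gene symbol in the platform annotation, 1814 several and 16010 none here, which gave 22180 genes; 2 members had more than 1 probe set. No arrays were identical; correlations were 0.979 to 0.990 among 0.3 g/l arrays and 0.982 to 0.990 among 4.5 g/l arrays.

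All genes were fitted in R 4.3.3 with limma 3.58.1 (lmFit, eBayes, two-sided, no block) and Benjamini-Hochberg adjustment over all genes, threshold 0.05. Precision is limited by the number of arrays, with a median SE of 0.0931 (log2). The fit was tested on simulated data. Members, lists and tests were chosen with earlier results of these data known. Named were the 3 members of each role with the smallest p, Lamp1, Ctsd, Tfeb, Tfe3, Mitf, Flcn, Sqstm1, Map1lc3b, Gpnmb, Npc1 and Mcoln1, and the 3 called genes with the smallest p of each other list (141 of 149 entries matched). Rragd and the remaining members were named after their values were seen. Printed promoters were those of lower members holding TCACGTGA. Alternatives were robust moderation with a mean-variance trend, a filter on the dimmest 25% of genes, 3 other scalings (quantile, cyclic loess, median), the mean of probe sets, array weights, the replicate number or number range as a block, rank-sum and 1.2-fold threshold tests, leaving out each array, and replicates 1 to 3 or 4 to 6 alone. Figures were drawn with matplotlib 3.10.9.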

Additional observations from a re-analysis of the deposited data

Results flagged for a closer look

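On 23 of 58 tested sets of 6 values, the lowest array was separated from the next by more than 0.625 of the group's range, the limit for 6 values. The highest array was tested in the same way, and chance gives a gap at either end in about 1 in 20 sets. The sets share the same arrays, so they are not independent and their number cannot be weighed against that rate. The lowest array was 0.3 g/l replicate 4 in all 23. For role means the gap as a share of the range was 0.867 in membrane proteins, 0.816 in the proton pump, 0.788 in TFEB-family control, 0.752 in autophagy and 0.734 in hydrolases and lumenal proteins, and 0.791 over all members. Among hydrolases it was 0.872 in Ctsd, 0.825 in Ctsl, 0.776 in Gaa and 0.675 in Lipa. Among membrane proteins it was 0.901 in Mcoln1, 0.873 in Gpnmb, 0.834 in Npc1 and 0.724 in Lamp1. In the pump it was 0.817 in Atp6ap1, 0.766 in Atp6v1h and 0.764 in Atp6v0d1, and in autophagy 0.858 in Sqstm1 and 0.643 in Atg7. In the control group it was 0.846 in Fnip2, 0.812 in Fnip1, 0.748 in Rragd and 0.723 in Flcn. The same array was past the limit in 30 of all 47 members, a count that was not made over all genes.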

How the results depend on the processing

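Over the refits of named genes, direction and call were kept in 857, a call was lost in 184 and one was gained in 25, and none reversed. Of the 19 lower members, 16 passed under quantile normalization, cyclic loess and median centring alike. Array weights, which gave 0.3 g/l replicate 4 the lowest weight (0.234), called 33 members lower, 1 higher and 5419 of all genes. The exact rank-sum test called 2 members lower, Gabarap and Tfe3, and 1993 of all genes. At its unadjusted p under 0.05, 19 members were lower and 1 higher, and 5314 of all genes differed in either direction. Against a fold of 1.2 limma called no member and 454 of all genes. At an unadjusted p under 0.05 in that limma test, 10 members were lower, and 1512 of all genes differed in either direction. Leaving out single arrays gave 10 to 35 lower members, 0 to 1 higher and 2514 to 5295 of all genes. Replicates 4 to 6 alone gave 0 members and 30 of all genes; without 0.3 g/l replicate 4 there, 29 members were lower, with medians of -0.45 for hydrolases and lumenal proteins and -0.55 for the pump. With the replicate number as a block, 20 members were lower, 0 higher and 3130 of all genes passed. Deviations of the arrays from their group means correlated at -0.046 to 0.173 between same-numbered arrays of the groups. Between differently numbered arrays they correlated at -0.188 to 0.181. The same-numbered values lay within the range of the others, so they do not decide whether the numbers pair the arrays. The cause of the shifts between refits was not tested. Differences of the dimmest members may be compressed by RMA, which was not measured. The dimmest, Tfeb, had means of 4.92 in 0.3 g/l and 5.12 in 4.5 g/l, above the dim bound of 4.20.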

Other observations

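Some genes of the other pathway lists moved further than most members; they were singled out after their values were seen. Ctns, which exports cystine from the lysosome, fell by 0.97 ± 0.20 (SE, 1.96-fold, limma adjusted p = 0.00483), and the chloride-proton exchanger Clcn7 by 0.76 ± 0.19 (1.69-fold, adjusted p = 0.0158). Both were called in all 12 fits that left out an array. The dipeptidyl peptidase Dpp7 fell by 0.92 ± 0.28 (adjusted p = 0.0396), the bone-matrix protease cathepsin K, Ctsk, by 0.70 ± 0.22 (adjusted p = 0.0442), the Rag GTPase Rragb by 0.62 ± 0.19 (adjusted p = 0.0439) and Tfec, a further relative of TFEB, by 0.61 ± 0.19 (adjusted p = 0.0481). Without 0.3 g/l replicate 4 these 4 differed by -1.19, -0.94, -0.78 and -0.81. Each lost its call in 8 to 11 of the 12 fits that left out an array, among them those without 0.3 g/l replicate 1, 2, 3, 5 or 6. Leaving out 4.5 g/l replicate 4, 5 or 6 also ended all 4 calls, replicate 1 or 2 those of Ctsk and Tfec, and replicate 3 those of Ctsk and Rragb. Under quantile normalization, cyclic loess and median centring, Dpp7 was called in 3 of 3, Rragb in 2, and Ctsk and Tfec in 1 each.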
